A study of Mus musculus with 9 samples.

Results

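Clustered protocadherins are cell surface adhesion proteins encoded by 3 neighbouring gene clusters on mouse chromosome 18. Their members were taken as all genes of chromosome 18 whose symbol begins with Pcdha, Pcdhb or Pcdhg in the GENCODE M21 annotation of mm10. These were 58 of 55413 annotated genes, with 14 in the Pcdhα, 22 in the Pcdhβ and 22 in the Pcdhγ cluster. The annotation gives the symbol *Pcdha11* to 2 gene records, and lists *Pcdhgb8* as a polymorphic pseudogene. Open chromatin was described over the window chr18:36880184-37891873, which reaches 50 kb beyond the first and the last of these genes, and held 53 of 135835 merged peak regions.

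In the Pcdhα and Pcdhγ clusters, each variable exon has its own promoter and is spliced to constant exons shared by the whole cluster, while Pcdhβ genes consist of a single coding exon. A cell usually uses only a few of the alternate promoters, and in neurons this choice is stochastic, depends on DNA methylation, the insulator protein CTCF and cohesin, and gives a cell its surface identity. The C-type genes *Pcdhac1*, *Pcdhac2*, *Pcdhgc3*, *Pcdhgc4* and *Pcdhgc5* at the ends of the Pcdhα and Pcdhγ clusters are regulated apart from the alternate genes. Distal enhancers lie downstream of the variable exons. The proteins bind copies of themselves on neighbouring cells, and in the nervous system they serve self-recognition of neurites and survival of interneurons.

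The samples were C3H/10T1/2 cells, an established mouse line of mesenchymal progenitors that can be turned into adipocytes, osteoblasts, chondrocytes or myocytes. Wild-type (WT) cells carried an empty Cas9 vector without a guide RNA, and B10 and G7 were *Atrx* knockout (KO) clones made with CRISPR-Cas9 from different guides. ATRX is a chromatin remodeller that helps to place the histone variant H3.3 in silent chromatin. Each KO line was 1 clone, so a difference that both clones share with the knockout and a difference between founding cells cannot be told apart. There was only 1 WT line as well, and the paper's workflow, which lists the empty-vector control, seeded transfected cells singly. A peak or a gap peculiar to that WT line would be counted as lost or gained in B10 and G7 alike. No source used here says whether the 3 ATAC-seq libraries of a line came from separate cultures.

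ATAC-seq marks where a transposase can cut the DNA, and places with many cuts are called as peaks. The 9 libraries held from 76385 to 88535 peaks, and read depth is unknown from peak lists, so a missing peak means not detected. The strength of a peak is given as its rank, the percentile of its −log10 q-value within its own library, with 100 the strongest. Replicate 1 of each line stood apart from replicates 2 and 3. The labelled cell type was checked at 12 mesenchymal markers: 9 had a promoter peak in all 9 libraries, *Ly6a* in 7 of them, and *Thy1* and *Nt5e* in none at the start of the gene record. The *Atrx* promoter had a peak in every library, at ranks from 80.8 to 86.0, which says nothing about a coding mutation and so does not check the knockout.

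Fewer peaks were found in the protocadherin window in both KO clones, with losses in the Pcdhα and Pcdhβ clusters and stronger or new peaks at the end of the Pcdhγ cluster. WT libraries held 37, 38 and 37 peaks there, B10 libraries 26, 26 and 25, and G7 libraries 26, 25 and 23. The covered length was 20.7 ± 0.601 kb in WT, 14.5 ± 0.195 kb in B10 and 15.8 ± 0.325 kb in G7 (mean ± SD, n = 3 each). All 6 KO libraries thus lay below all 3 WT libraries, although peaks on the whole of chromosome 18 were more numerous in the clones, with 2281 to 2419 in WT, against 2542 to 2826 for B10 and 2433 to 2531 for G7. In bulk cells, fewer cells with an open region and a less open region in every cell cannot be told apart. With 3 libraries against 3 the smallest two-sided p of an exact permutation test is 0.1, so counts per library cannot pass 0.05.

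**Figure D1:**
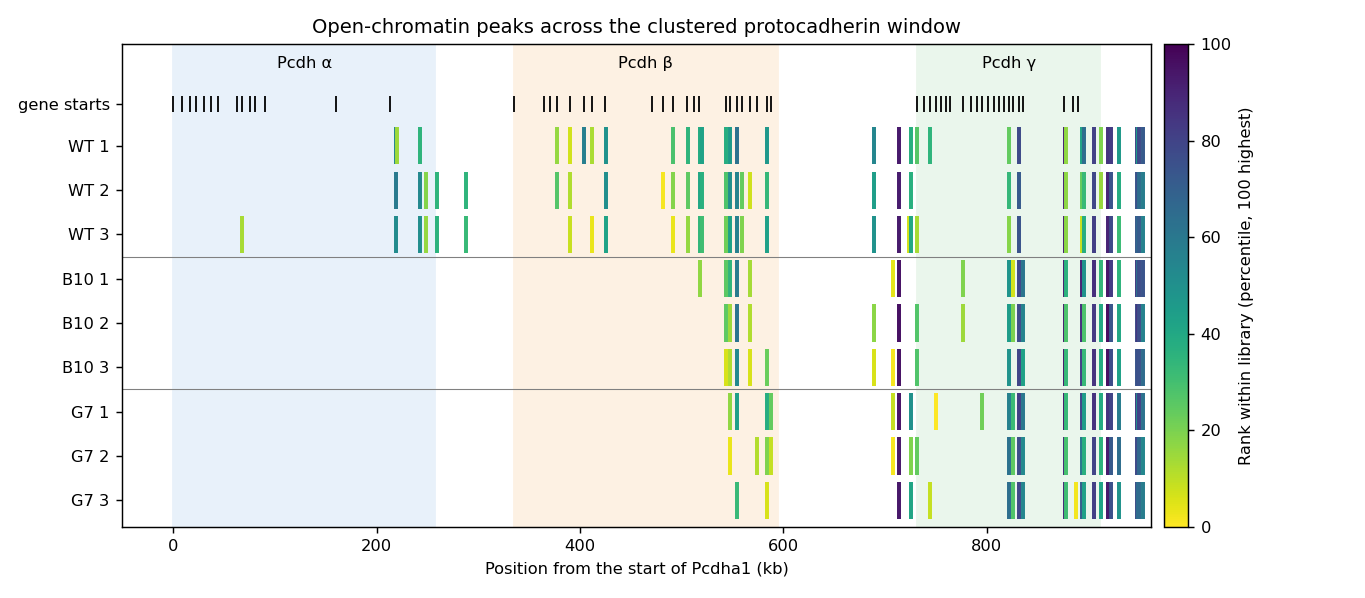
Peaks of each library (rows) along the protocadherin window (x axis, kb from the start of *Pcdha1*), coloured by rank within the library, with gene starts as ticks and the clusters shaded. WT libraries have peaks in the Pcdhα shading, which is empty in all 6 KO libraries, while the Pcdhγ shading and the flank after it are filled in all 9.

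A region was called lost in a clone when 0 of 3 of its libraries and at least 2 of 3 WT libraries had a peak, and gained in the reverse case. Of 43 consensus regions in the window (a peak in at least 2 of 3 libraries of any line), 14 were lost in B10 (32.6%), against 7.58% of all 97338 consensus regions, and 16 were lost in G7 (37.2%), against 7.42%. The 13 regions lost in both clones (30.2%, against 4.36%) were 3 in the Pcdhα cluster, 2 in the gap between Pcdhα and Pcdhβ, and 8 in the Pcdhβ cluster. None of the 11 consensus regions of the Pcdhγ cluster, nor of the 8 in the 50 kb after it, was lost in either clone. The 4 regions gained in B10 (9.30%, against 10.4%) and the 4 gained in G7 (9.30%, against 5.69%) included 3 gained in both (6.98%, against 2.97%). With missing peaks counted as rank 0, 12 of the 43 regions lay below WT in all 3 B10 libraries without overlap (27.9%, against 12.7%), 12 in G7 (27.9%, against 13.7%) and 10 in both (23.3%, against 7.72%). Above WT in the same sense were 9 of 43 in B10, against 19426 of 97338, which is about the same share, 8 of 43 in G7, against 11917 of 97338, and 6 in both, against 6.75% of all. The clones share the WT libraries, so the 2 comparisons are not independent of each other.

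The share of losses in the window was also above that of its surroundings. Elsewhere on chromosome 18, 3.48% of 3049 consensus regions were lost in both clones, and within 1 Mb on either side of the window 9 of 143 were (6.29%). Regions that held a peak in each of the 9 libraries moved the other way in rank on chromosome 18, with a median difference from WT of 2.89 points in B10 and 1.59 in G7 over 1390 regions outside the window, against 0.703 and -0.0350 over 47431 regions of the genome. The 15 such regions inside the window had median differences of 3.397 and 1.99.

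At promoters, taken as 1 kb either side of the start of the gene record, peaks were fewer in the clones as well. Of 58 protocadherin promoters, 30 had no peak in any library (51.7%), against 41.4% of 21938 protein-coding promoters, and only 3 (5.17%) had a peak in all 9, against 49.4%. Promoters with a peak numbered 16.3 ± 0.577 in WT, 10.7 ± 0.577 in B10 and 9.67 ± 1.53 in G7 libraries (SD, n = 3 each). Where there was a peak it was weak for a promoter: the median rank per library was between 20.7 and 43.3 over protocadherin promoters, and between 89.0 and 91.3 over all protein-coding promoters. Lost in both clones were 7 of 58 promoters (12.1%), all in the Pcdhβ cluster, against 0.880% of protein-coding promoters, and gained in both were 2 (3.45%), both in the Pcdhγ cluster, against 0.492%. The shares lost or gained among protein-coding promoters with peaks as weak as these are not given here. Peaks in at least 2 of 3 libraries were found at 16 promoters in WT, 11 in B10 and 9 in G7, while over protein-coding promoters this share was 53.6%, 52.6% and 53.2%. Ranks lay below WT without overlap at 7 of 58 promoters in B10 (12.1%, against 8.57%) and 8 in G7 (13.8%, against 10.2%), all in the Pcdhβ cluster, and above WT at 3 in B10 (5.17%, against 10.8%) and 3 in G7 (5.17%, against 9.52%), all in the Pcdhγ cluster. Variable exons are similar in sequence and the way multiply mapped reads were treated is not given in the sources used here, so reads could be shared between neighbouring members.

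**Figure D2:**
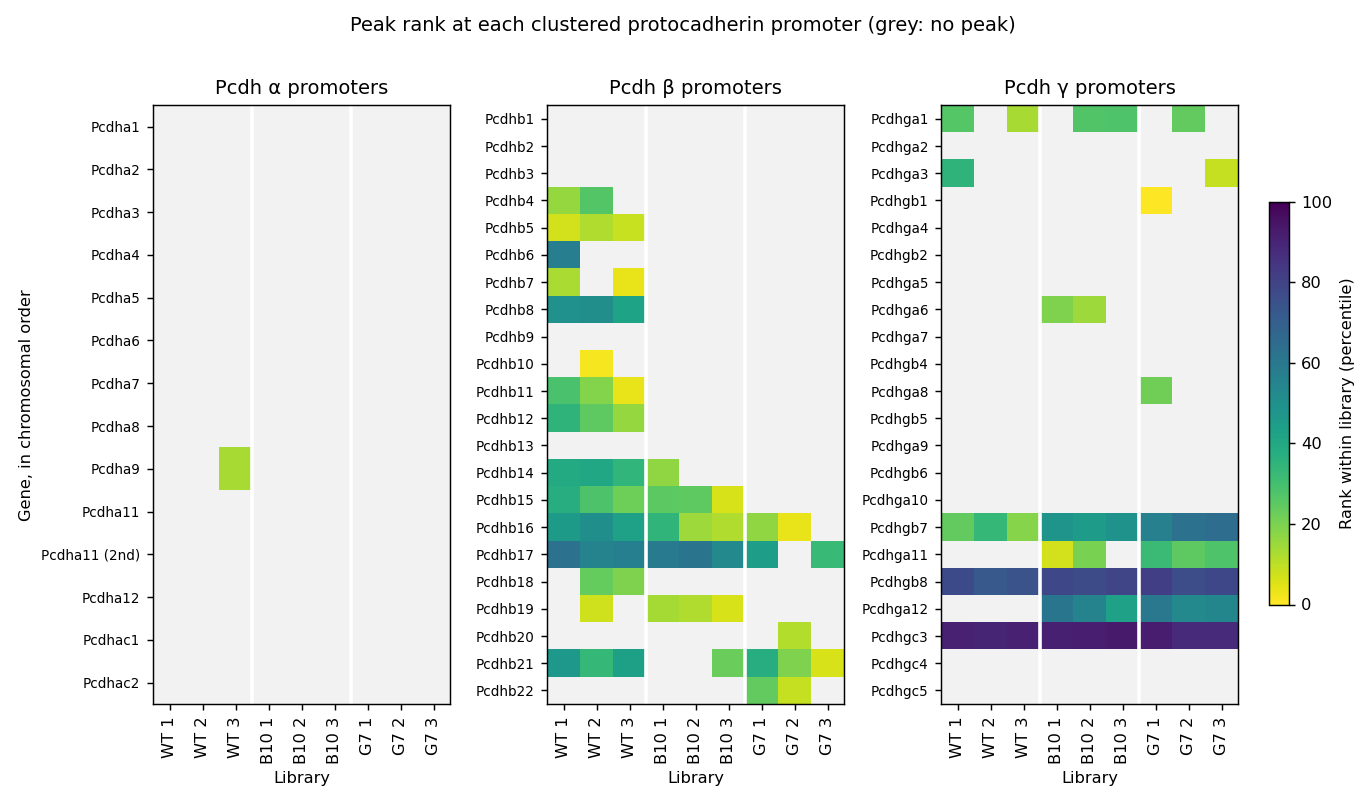
Rank of the peak at each of the 58 promoters (rows, in chromosomal order, one panel per cluster) in each library (columns), with grey where no peak was called. Pcdhβ peaks reach from *Pcdhb4* to *Pcdhb21* in WT libraries and start at *Pcdhb14* or later in KO libraries, and *Pcdhga12* is coloured in the 6 KO libraries and in 0 of 3 WT libraries.

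The Pcdhα promoters had almost no peaks in any line. No library of B10 or G7 had a peak at any of the 14 promoters, and *Pcdha9* in WT replicate 3, at rank 13.3, was the only peak in WT. The C-type promoters *Pcdhac1* and *Pcdhac2* had none. The open chromatin of the cluster lay downstream of the variable exons, and there it was found in WT libraries only.

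A region of the intron that follows *Pcdhac2*, at chr18:37148993-37149716 and 5.85 kb after its start, had ranks of 53.5, 59.3 and 52.1 in the WT libraries and no peak in the 6 KO libraries. At chr18:37172262-37172852, at the start of the noncoding record *Gm38097* within the Pcdhα transcription unit, the WT ranks were 35.1, 53.4 and 50.9, again with no peak in either clone. The third region, at chr18:37178275-37178586 and at the start of *Gm10544*, was found at ranks 18.7 and 15.8 in WT replicates 2 and 3 only. In the gap before *Pcdhb1*, which the annotation covers only by long read-through gene models, 2 regions at chr18:37188763-37189529 and chr18:37218153-37218468 had ranks of 35.1 and 35.8 and of 35.1 and 32.5 in WT replicates 2 and 3. Neither had a peak in WT replicate 1 or in a KO library, so these 2 calls rest on replicates 2 and 3.

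These losses could not be tested among regions with a peak in every library. When a missing peak was entered as rank 0 and limma, a linear model that pools the spread over regions, was fitted over all 97338 consensus regions, 10 window regions were lower in B10 (23.3%, against 6.57% of all) and 9 in G7 (20.9%, against 5.67%). Higher were 6 of 43 in B10 (against 11.6% of all) and 5 of 43 in G7 (against 4.62%), and 1 was lower and 0 higher in B10 than in G7 (against 2.48% and 5.95%). Many of these regions entered the consensus set only through the line with peaks, and a line without peaks is a row of filled-in zeros, so these counts repeat the calls of presence and nothing is read from them. A p-value from this fit is given below only where each line compared had a peak.

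The Pcdhβ cluster held most of the lost promoters. WT libraries had a peak at 12, 13 and 11 of the 22 promoters, B10 libraries at 5, 4 and 5, and G7 libraries at 4, 4 and 2. Means were 12 ± 1 in WT, 4.67 ± 0.577 in B10 and 3.33 ± 1.15 in G7 (SD, n = 3), and the KO libraries did not overlap with WT. Lost in B10 were 7 promoters (31.8% of the cluster, against 1.77% of protein-coding promoters) and in G7 9 (40.9%, against 1.24%). Peaks at protein-coding promoters were mostly stronger than these, and the share lost among promoters of like rank is not given here. *Pcdhb1*, *Pcdhb2*, *Pcdhb3*, *Pcdhb9* and *Pcdhb13* had no peak in any library.

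**Figure D3:**
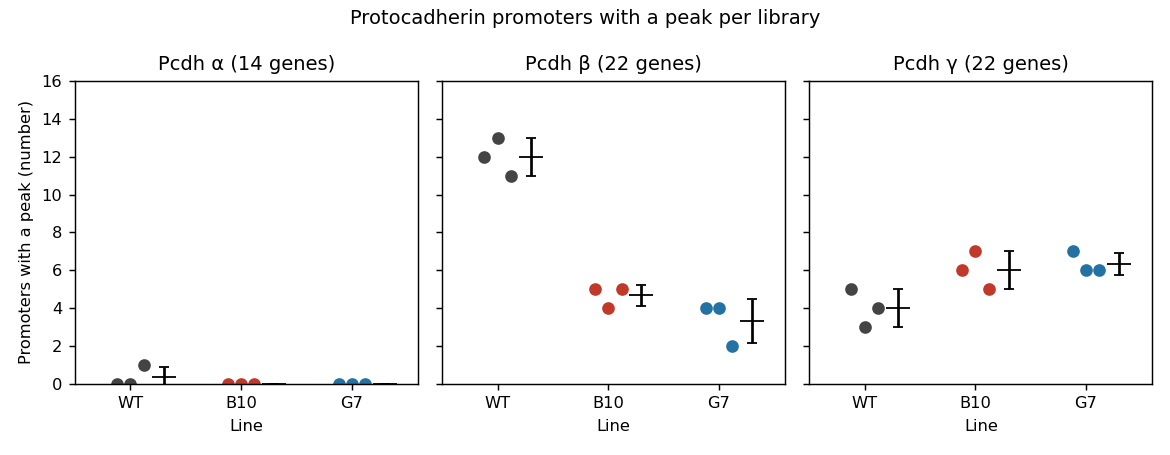
Number of promoters with a peak (y axis) in each library (dots) of the WT, B10 and G7 lines, by cluster, with the mean and SD of 3 libraries as a bar beside the dots. The Pcdhβ counts are 11 to 13 in WT and 2 to 5 in the clones, and the Pcdhγ counts 3 to 5 in WT and 5 to 7 in the clones.

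*Pcdhb8* was the strongest of the promoters lost in both clones. Its WT ranks were 49.6, 50.8 and 41.8, which stood for −log10 q-values of 23.9, 32.4 and 21.2 where the lists reach down to between 1.302 and 1.313, and no KO library had a peak. *Pcdhb12* had WT ranks of 35.1, 24.9 and 15.8 and was likewise without a KO peak.

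*Pcdhb11* was present in WT at ranks 28.7, 18.7 and 3.28, and *Pcdhb5* at 6.88, 11.98 and 8.24, each with no peak in 6 KO libraries. *Pcdhb4* had ranks of 15.8 and 26.8 in WT replicates 1 and 2, *Pcdhb7* of 12.9 and 3.28 in replicates 1 and 3, and *Pcdhb18* of 23.6 and 19.3 in replicates 2 and 3. Peaks as weak as some of these stand close to the limit of the lists, and each of these 3 was missing from 1 WT library.

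The promoters that kept a peak in the clones lay at the 3′ end of the cluster. From *Pcdhb1* to *Pcdhb13*, a peak was found in some WT library at 8 of 13 promoters and in 0 of 13 in both B10 and G7. From *Pcdhb14* to *Pcdhb22* it was found at 7 of 9 promoters in WT, 6 in B10 and 5 in G7. This split was drawn after the values were seen and was not tested. The median position of promoters with a peak was 164 to 183 kb from the start of *Pcdhb1* in WT libraries, 213 to 220 kb in B10 and 234 to 244 kb in G7, in a cluster whose last gene starts at 253 kb.

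At the 3′ end the order of lines was not the same at every gene. By mean rank, with missing peaks at rank 0, WT was highest and G7 lowest at each gene from *Pcdhb14* to *Pcdhb17*. Other orders were found from *Pcdhb19* to *Pcdhb22*. *Pcdhb17* had ranks of 62.4, 55.4 and 56.7 in WT and of 58.7, 61.7 and 52.8 in B10, which overlapped, and of 43.8 and 32.5 in G7 replicates 1 and 3 with none in replicate 2. *Pcdhb16* ranked 45.7, 50.1 and 42.6 in WT, 34.6, 14.6 and 11.9 in B10, and 16.6 and 3.27 in G7 replicates 1 and 2. All clone values of *Pcdhb16* were below those of WT, and the difference passed in G7 (-39.5 ± 8.12, adjusted p = 0.0157) but not in B10 (adjusted p = 0.0570, limma with missing peaks at rank 0). This G7 value includes a filled-in rank 0 for replicate 3. The G7 difference at *Pcdhb17*, with replicate 2 filled in, did not pass (-32.7 ± 10.1, adjusted p = 0.0784, same fit).

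*Pcdhb14* had WT ranks of 38.8, 40.4 and 34.2, a peak at rank 16.5 in B10 replicate 1 and none in the other KO libraries. *Pcdhb15* was found in WT at 37.6, 28.1 and 22.1 and in B10 at 25.1, 24.9 and 6.23, but in no G7 library. The B10 ranks of *Pcdhb15* overlapped with those of WT.

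*Pcdhb21* had more peaks in G7 than in B10, with WT ranks of 46.8, 33.5 and 43.2, a single B10 peak at 22.7 and G7 ranks of 37.7, 19.3 and 5.98. With missing peaks at rank 0, *Pcdhb21* was lower in B10 (-33.6 ± 9.89, adjusted p = 0.0446, limma), a value that rests largely on filled-in zeros. G7 overlapped with WT (adjusted p = 0.241, same fit). *Pcdhb22*, the last gene of the cluster, was gained in G7 only, at ranks 23.9 and 8.68 in replicates 1 and 2. The difference between the clones at *Pcdhb21* had an adjusted p of 0.471 (limma with missing peaks at rank 0), so B10 and G7 were not shown to differ there.

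Besides the promoters, 1 region within a Pcdhβ gene was lost in both clones. It lay at chr18:37449790-37450153, in the single exon of *Pcdhb14* and 2.32 kb after its start, with WT ranks of 42.3, 36.6 and 30.7. This was the only window region within the clusters whose central 500 bp held an exact match of the CTCF core motif.

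In the Pcdhγ cluster no promoter was lost, and several were stronger or had a peak in the clones alone. WT libraries had a peak at 5, 3 and 4 of the 22 promoters, B10 libraries at 6, 7 and 5, and G7 libraries at 7, 6 and 6. Means were 4 ± 1, 6 ± 1 and 6.33 ± 0.577 (SD, n = 3), and B10 overlapped with WT at 5 promoters. Gained in B10 were *Pcdhga6*, *Pcdhga11* and *Pcdhga12* (13.6% of the cluster, against 0.975% of protein-coding promoters) and in G7 *Pcdhga11* and *Pcdhga12* (9.09%, against 1.01%). No peak was found in any library at 12 of the 22 promoters, among them the C-type promoters *Pcdhgc4* and *Pcdhgc5*.

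*Pcdhga12*, the last alternate gene, had no peak in WT and ranks of 61.2, 55.3 and 42.8 in B10 and 59.9, 52.9 and 54.1 in G7. It was the only region of the window with a peak in all 6 KO libraries and 0 of 3 WT libraries.

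*Pcdhga11* was weaker, with no WT peak, ranks of 7.01 and 20 in B10 replicates 1 and 2, and ranks of 31.9, 24.9 and 27.6 in G7. All G7 ranks of *Pcdhga11* lay above those of B10. *Pcdhga6* had peaks only in B10, at ranks 19.5 and 14.6 in replicates 1 and 2.

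*Pcdhgb7*, *Pcdhgb8* and *Pcdhgc3* were the 3 members with a peak in every library, so they could be compared without filling in missing values. At chr18:37751471-37752042, over the start of *Pcdhgb7*, ranks were 24.0, 33.5 and 18.2 in WT, 48.4, 45.2 and 48.7 in B10, and 56.6, 62.8 and 64.1 in G7. The 3 lines did not overlap. *Pcdhgb7* was 22.2 ± 5.09 points higher in B10 (adjusted p = 0.0170) and 36.0 ± 5.09 higher in G7 (adjusted p = 0.00334), and the clones differed by -13.8 points for B10 minus G7 (adjusted p = 0.146, limma over 47431 regions). The B10 call did not hold without WT replicate 3 (adjusted p = 0.0644), B10 replicate 1 (0.0515) or B10 replicate 3 (0.0564).

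*Pcdhgb8* and *Pcdhgc3* were strong in every library and passed the test in neither clone. *Pcdhgb8* ranked 77.6, 72.2 and 74.4 in WT, 78.1, 77.0 and 79.2 in B10, and 81.6, 76.5 and 78.4 in G7 (adjusted p = 0.365 and 0.304, limma). *Pcdhgc3*, the C-type gene that many cell types express, had the strongest peak of all members, at 90.9, 89.8 and 90.6 in WT, 91.4, 91.6 and 92.8 in B10, and 92.4, 88.1 and 87.9 in G7. Its differences of 1.47 ± 1.18 in B10 and -0.982 ± 1.18 in G7 did not pass (adjusted p = 0.448 and 0.658, limma), although the B10 ranks lay just above those of WT.

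**Figure D4:**
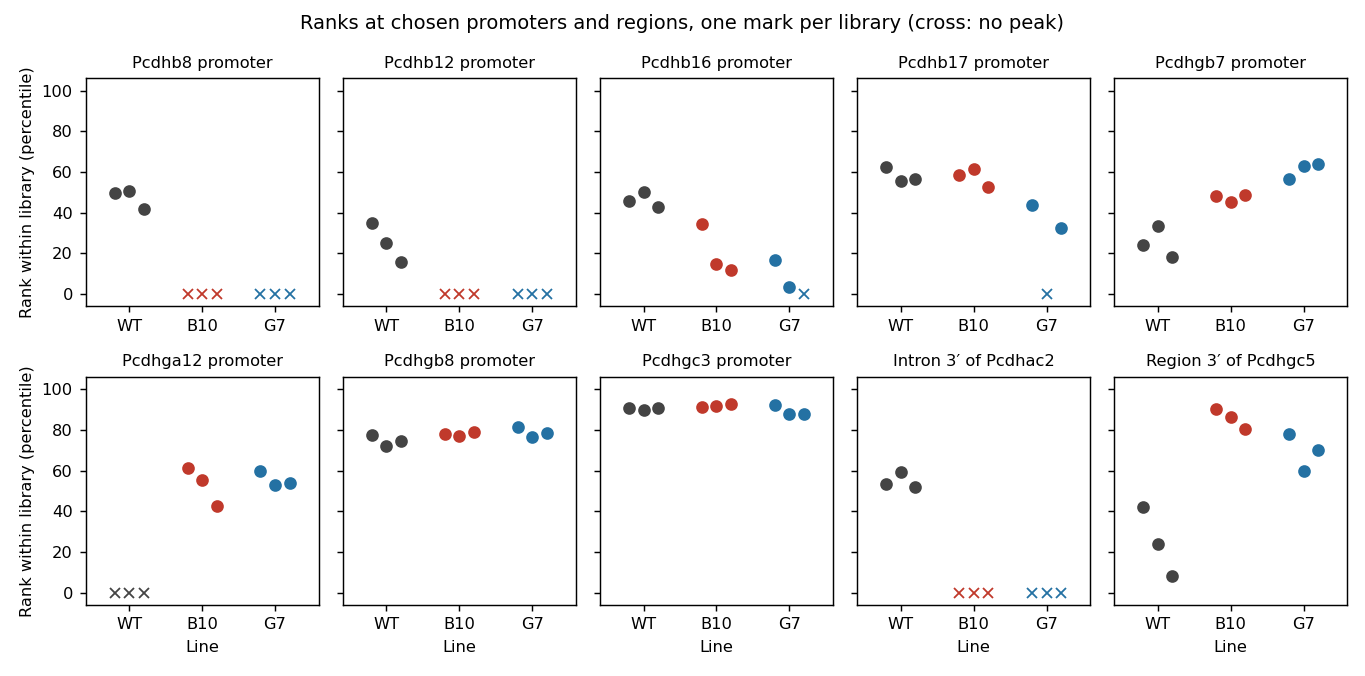
Rank within the library (y axis) at 8 promoters and 2 other regions for the 3 libraries of each line (one mark each), with a cross at 0 where no peak was called. *Pcdhb8* and the intron 3′ of *Pcdhac2* have WT peaks only, and *Pcdhga12* has KO peaks only. *Pcdhgb7* and the region labelled 3′ of *Pcdhgc5*, which lies within that gene, are higher in both clones, and *Pcdhgc3* stays between 87.9 and 92.8.

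A region behind the starts of the Pcdhγ C-type genes, which overlaps an annotated exon of *Pcdhgc5*, was stronger in both clones. At chr18:37823847-37824656, 4.74 kb after the start of *Pcdhgc5* and at the start of the record *Gm38182*, ranks were 41.9, 23.8 and 8.24 in WT, 90.1, 86.2 and 80.7 in B10, and 78.2, 59.8 and 69.9 in G7. All KO values exceeded all WT values, which themselves spread widely. The difference was 61.0 ± 7.99 points in B10 (adjusted p = 0.00144) and 44.7 ± 7.99 in G7 (adjusted p = 0.00898), and that between the clones 16.3 points (adjusted p = 0.271, limma). The next region, which begins within 1 kb of it, did not follow, with differences of -8.34 ± 8.63 and -3.51 ± 8.63 (adjusted p = 0.568 and 0.847).

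Another region of the Pcdhγ cluster, chr18:37807568-37808562, 1.70 kb after the start of *Pcdhgc3* and at the start of *BC037039*, ranked 16.7, 17.1 and 17.3 in WT, 36.1, 28.1 and 33.2 in B10, and 33.1, 29.3 and 31.2 in G7. Both clones lay above WT and overlapped with each other, but the differences of 15.5 ± 4.69 and 14.2 ± 4.69 points missed the threshold (adjusted p = 0.0507 and 0.0871, limma). With the replicate number as a block the B10 value passed (adjusted p = 0.0357) and the G7 value did not (0.0584). Without an eBayes trend both passed (adjusted p = 0.00536 and 0.0105), whereas ranks by fold enrichment gave differences of only 3.24 and 2.82 points (adjusted p = 0.389 and 0.555). Past the last Pcdhγ exon, at chr18:37842432-37843477, WT ranks of 19.4 and 15.4 in replicates 1 and 2 stood against 33.6, 39.8 and 38.3 in B10 and 39.0, 35.3 and 41.7 in G7 (adjusted p = 0.0374 and 0.0451, limma with the missing peak at rank 0).

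Of the 15 window regions with a peak in all 9 libraries, limma called 4 higher in B10 (26.7%, against 11.0% of 47431) and 2 higher in G7 (13.3%, against 5.39%), and 0 lower in either (against 5.37% in B10 and 4.82% in G7). At an adjusted p under 0.05, 0 of them differed between the clones, against 4.21% higher and 2.39% lower in B10 than in G7 over the genome. The other 2 regions called in B10 were the promoter of *Taf7*, a subunit of the general transcription factor TFIID (2.84 ± 0.535 points, adjusted p = 0.00735), and an intron of *Diaph1*, an actin-assembly factor whose gene follows the Pcdhγ cluster (7.24 ± 2.03, adjusted p = 0.0380). Chromosome 18 outside the window was itself higher than WT, by a median of 2.89 points in B10 and 1.59 in G7. The B10 difference at *Taf7* was of that size. The share called by limma on chromosome 18 alone is not given here. The *Taf7* call was lost with ranks by fold enrichment (0.558 points, adjusted p = 0.622), on the log2 scale of fold enrichment (adjusted p = 0.0753) and without a trend (0.0989). The *Diaph1* call was lost under these 3 settings (adjusted p = 0.384, 0.515 and 0.0964), with equal numbers of peaks (0.0539), and without any one of the WT or B10 libraries (0.0600 to 0.115). It held without any one of the G7 libraries (0.00754 to 0.0455). The replicate block kept both calls, with an adjusted p of 0.00188 at *Taf7* and 0.000381 at *Diaph1* (limma). With the replicate number as a block, 7 regions were higher in B10 (against 21.4% of all), and 2 were higher and 1 lower in B10 than in G7 (against 14.3% and 6.58%). Besides the region at the start of *BC037039*, the block added calls at chr18:37835244-37837021 in the Pcdhγ constant part (B10 against WT, adjusted p = 0.0265) and at 3 places in the flank after the cluster.

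By presence alone the clones differed at few window regions. A peak in at least 2 of 3 B10 libraries and in 0 of 3 G7 libraries was found at 4 of 43 regions (9.30%, against 8.25% of all consensus regions), namely *Pcdhb15*, *Pcdhb19*, *Pcdhga6* and the start of *4930517L18Rik*. The reverse held at 2 (4.65%, against 4.24%), *Pcdhb22* and the start of *3222401L13Rik*. Both shares were near the background.

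The promoters of the 3 clusters were also compared in sequence. An exact match of the CTCF core motif, on either strand and within 1 kb of the gene start, was found at 6 of 14 Pcdhα promoters (42.9%), at 0 of 22 Pcdhβ and at 0 of 22 Pcdhγ promoters, against 1.72% of protein-coding promoters. The 6 were *Pcdha1*, *Pcdha4*, *Pcdha6*, *Pcdha7*, *Pcdha8* and *Pcdha12*, none of which had a peak. A ratio of observed to expected CpG pairs had a median of 0.641 in Pcdhα, 0.334 in Pcdhβ and 0.507 in Pcdhγ promoters, and of 0.474 over all protein-coding promoters. The median GC content was 41.9%, 42.1% and 45.8%, against 51.2%. An exact motif search sees only these letters, so a promoter or a cluster without a match may still hold CTCF sites. The 7 Pcdhβ promoters lost in both clones had a median CpG ratio of 0.342, close to that of their cluster.

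Promoters of related genes and of regulators of the clusters mostly had a peak in every library or in none. Of 12 non-clustered protocadherin genes, *Pcdh1*, *Pcdh7*, *Pcdh9*, *Pcdh18* and *Pcdh19* had a promoter peak in all 9 libraries, 6 had none, and 0 were gained or lost in a clone. At the shares over protein-coding promoters (0.975% and 1.01% gained, 1.77% and 1.24% lost in B10 and G7) a count of 0 of 12 is near the background and says nothing particular about these genes. *Pcdh9* ranked from 96.4 to 98.5 in WT and lower in both clones, from 91.0 to 95.2 in B10 and from 90.7 to 94.7 in G7. Of 21 genes for CTCF, cohesin, DNA methylation and silencing factors, 18 had a peak in all 9 libraries. Without overlap, 6 of the 21 ranked below WT and 3 above in B10 (against 8.57% and 10.8% of protein-coding promoters), and 5 below and 2 above in G7 (against 10.2% and 9.52%). *Dnmt3b*, *Pds5b*, *Rest* and *Setdb1* were below WT in both clones, and *Ctcf* and *Mau2* above in both. The share of all protein-coding promoters that lay below or above WT in both clones is not given here, so these genes are not singled out. The promoter of *Dnmt3b*, a de novo DNA methyltransferase, ranked 81.5, 78.5 and 79.5 in WT, 70.0, 69.1 and 71.7 in B10, and 75.8, 74.2 and 72.7 in G7. The *Ctcf* promoter ranked 88.9, 86.9 and 87.4 in WT, 93.9, 91.0 and 93.6 in B10, and 95.6, 92.2 and 94.6 in G7.

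Lost among these regulators was *Lrif1*, which encodes a partner of the silencing factor SMCHD1, and only in B10 (1 of 21, against 1.77% of protein-coding promoters). It had ranks of 76.6, 75.4 and 70.3 in WT and of 78.5, 74.0 and 71.6 in G7, and no peak in the 3 B10 libraries. Of 6 genes for proteins that clustered protocadherins act on in cells, 5 had a peak throughout. The other, *Ptk2b*, encoding the kinase Pyk2 that protocadherins inhibit, was lost in both clones from WT ranks of 36.4, 49.2 and 41.3. This was 1 of 6, against 0.880% of protein-coding promoters lost in both, and 1 gene says nothing about these partners as a set.

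Markers of other cell types were compared too, since protocadherin promoters are used in neurons. All 6 neuronal markers had a promoter peak in at least 2 WT libraries, and their summed rank was 217 to 250 in WT, 86.9 to 101.6 in B10 and 155 to 189 in G7, with *Syt1* and *Rbfox3* without a peak in both clones. *Snap25*, a part of the synaptic fusion machinery, ranked 75.9, 72.3 and 70.3 in WT, was absent in B10 and ranked 35.9 and 32.5 in G7 replicates 1 and 3. The neuronal marker *Syn1* ran against this in G7, with ranks of 77.7, 71.3 and 82.1 there and of 6.88, 33.5 and 15.8 in WT. *Tubb3* overlapped with WT in G7 and lay below it in B10, while *Stmn2* overlapped with WT in B10 and lay below it in G7. Lost were 4 of the 6 in B10 (against 1.77% of protein-coding promoters) and 2 of the 6 in G7 (against 1.24%). The summed rank of 12 mesenchymal markers was 670 to 712 in WT, 660 to 667 in B10 and 687 to 717 in G7, that of 4 epithelial markers 0 to 48.6 in WT, 0 in B10 and 0 to 17.5 in G7, that of 3 blood markers 0 to 47.1, 37.6 to 63.6 and 25.4 to 53.9, and that of 3 endothelial markers 26.0 to 44.9, 0 to 8.63 and 0 to 33.4. The part of these markers in the protocadherin results was not tested.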

How the data were processed

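Per the labels and the methods of the study, the authors checked reads with Rfastp (v0.1.2), aligned them to mm10 with Rsubread (v1.30.6) and called peaks with MACS2 for each library. The MACS2 version and the use of an input are not given in the sources used here. The deposited lists hold for each peak a fold enrichment (a ratio), a −log10 q-value, both made by the authors, and a summit position. Lists hold no counts, so the study's count test was not run.

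Peaks on chromosomes 1 to 19, X and Y (2 to 7 left out per library) were merged where they touched. Regions, calls, promoters and ranks are as defined in the report. limma (v3.58.1, R v4.3.3) was fitted to the ranks of all 9 libraries with an eBayes trend, over regions with a peak in all 9, and p-values were adjusted by the Benjamini-Hochberg method over all of them, threshold 0.05. It was tested on simulated data. Libraries with the same replicate number deviated together (r from 0.314 to 0.664 over 9 pairs of libraries, across 47431 regions), so the numbers were taken as pairing the libraries, from the data and not from the labels, and a fit with the number as a block was added. Both clones share the WT libraries. Gene starts came from GENCODE M21 and sequence features from GRCm38.p6. Genes were named when they were C-type, called in a clone, not overlapping with WT in rank, or open in all 9 libraries. The members, lists and tests were chosen with earlier results of these data known, and support nothing beyond the values given. Alternatives were: equal numbers of peaks, a −log10 q-value of at least 5, 3 of 3 libraries, promoter widths of 500 bp and 3 kb, summits, fold enrichment in place of q, missing peaks as rank 0, no trend, the block, single replicate numbers, and each library left out.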

Additional observations from a re-analysis of the deposited data

Results flagged for a closer look

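The promoter of *Pcdhb19* moved in opposite directions in the clones, with missing peaks counted as rank 0. B10 stood 7.99 points above WT (ranks of 13.4, 11.7 and 6.23) and G7 stood -2.47 points from WT, where the only WT peak was at rank 7.40 in replicate 2 and no G7 library had a peak. This difference between the clones' changes was not tested as such.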

How the results depend on the processing

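Of the differences recomputed, that of G7 from WT at the *Taf7* promoter, which was not called, changed direction, to -0.676 points with ranks by fold enrichment and to -0.032 on the log2 scale of fold enrichment. The counts that moved by more than 1.5 times were these. With equal numbers of peaks, window regions gained in B10 were 2 and in both clones 1, promoters gained in both 1, and regions lower in B10 than in G7 by limma 1. With a −log10 q-value of at least 5, gained regions were 2 in B10, 2 in G7 and 1 in both, promoters gained in both 1, and Pcdhβ promoters open in G7 2. With 3 of 3 libraries required, gained regions were 1 in B10, 2 in G7 and 1 in both, lost regions 8, 10 and 7, promoters gained 1 in B10 and 1 in both, promoters lost 4 in B10 and 4 in both, Pcdhβ promoters open in G7 1 and Pcdhγ promoters open in B10 4. The replicate block gave limma counts of 7 higher in B10 than WT, 2 higher and 1 lower in B10 than G7, and changed no other count of calls in the window by over 1.5 times. Fold enrichment in place of q gave 2 higher and 1 lower in B10, both as ranks and on the log2 scale. Missing peaks as rank 0 gave 10 lower in B10, 5 higher and 9 lower in G7, and 1 lower in B10 than G7. Replicates 2 and 3 alone gave 1 region gained in B10, 2 in G7 and 1 in both, 1 promoter gained in B10 and 1 in both, and 1 Pcdhβ promoter open in G7. Replicate 1 alone gave 5 promoters gained in G7.

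With 1 library left out, the count of lost window regions ranged from 9 to 15 for B10, from 11 to 17 for G7 and from 8 to 14 for both clones, with 9 in B10 and 8 in both without WT replicate 2 or WT replicate 3. By construction, a line with 2 libraries left must have a peak in both. Gained regions were 1 to 5 in B10 (1 without B10 replicate 1, 2 without B10 replicate 2), 2 to 4 in G7 (2 without G7 replicate 1 or G7 replicate 2) and 1 to 3 in both (1 without B10 replicate 1). Promoters gained were 1 to 4 in B10 and 1 to 2 in both (1 without B10 replicate 1 or B10 replicate 2), and those lost 5 to 8 in B10 and in both. Pcdhβ promoters open in G7 were 1 to 4 (1 without G7 replicate 1, 2 without G7 replicate 2), and Pcdhγ promoters open in B10 4 to 7 (4 without B10 replicate 2). limma called 2 to 4 regions higher in B10 than WT (2 without WT replicate 3, B10 replicate 1 or B10 replicate 3), 0 to 1 higher in B10 than G7 (1 without G7 replicate 1), and 2 to 3 higher and 0 to 1 lower in G7 (1 lower without G7 replicate 3). Read depth is unknown, so a lost peak may have fallen just under the limit of the lists.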

Other observations

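Of the 58 protocadherin promoters, 6 had a peak in exactly 1 library: *Pcdha9*, *Pcdhb6* and *Pcdhb10* in WT, and *Pcdhb20*, *Pcdhgb1* and *Pcdhga8* in G7. Most were weak, such as *Pcdhgb1* at rank 0.319 in G7 replicate 1. *Pcdhb6* was the exception, with a rank of 57.4 in WT replicate 1 (−log10 q-value 32.5, fold enrichment 12.7), while WT replicates 2 and 3 had no peak there. This single library thus held at *Pcdhb6* a stronger peak than at *Pcdhb8*, which all 3 WT libraries shared. *Pcdhga3* and *Pcdhga1* were also uneven among libraries of a line, with *Pcdhga3* at rank 35.1 in WT replicate 1 and 8.73 in G7 replicate 3, and *Pcdhga1* at 26.4 and 13.3 in WT replicates 1 and 3, 27.2 and 27.5 in B10 replicates 2 and 3, and 24.2 in G7 replicate 2.

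The genes between the Pcdhβ and Pcdhγ clusters were followed by their values as well. The start of the noncoding gene *4930517L18Rik* ranked 54.3, 44.5 and 49.4 in WT, 17.3 and 6.23 in B10 replicates 2 and 3, and had no peak in G7 (adjusted p = 0.00210 for B10 against WT, limma with the missing peak at rank 0). The start of *3222401L13Rik* ranked 37.0, 36.6 and 40.0 in WT and 49.6, 19.3 and 41.4 in G7, and had no peak in B10. *Slc25a2*, which encodes a mitochondrial carrier of basic amino acids, was gained in both clones at ranks no higher than 8.75.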
